A study of Homo sapiens with 4 samples.

Results

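Alpha and beta tubulin are the subunits of the heterodimer that polymerises into microtubules, and each is encoded by several genes whose proteins are called isotypes. The isotypes resemble each other over most of their length and differ mainly in an acidic carboxy-terminal tail, which projects from the microtubule surface, binds motors and associated proteins, and is the site of most tubulin modifications. Cells also adjust tubulin output after transcription: when free dimer accumulates, the factor TTC5 recognises the first residues of nascent tubulin on the ribosome and the mRNA is degraded through CCR4-NOT. Class III beta tubulin (TUBB3) is a common neuronal marker that many carcinomas also express.

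The members were taken by gene symbol: TUBA1A, TUBA1B, TUBA1C and TUBA4A of the alpha family, and TUBB, TUBB2A, TUBB2B, TUBB3, TUBB4B and TUBB6 of the beta family. These 10 symbols match 11 of the 20226 rows that each table lists, because TUBB3 has 2 rows. The row ENSG00000258947 is used as TUBB3. The other, ENSG00000198211, is a read-through gene that begins upstream; it was at 0.48 TPM in 1 shNUP210 library and listed at 0 in the other 3. All 10 members passed the filter of at least 5 TPM in 2 libraries, as 10140 genes did. TUBA1A passed it narrowly, with 5.35 TPM in shNUP210 replicate 2 and 5.91 TPM in shCon replicate 2 above the limit and the other libraries below it.

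RNA was sequenced from Huh7, an established hepatocellular carcinoma line. In 2 libraries the cells carried a short hairpin RNA against NUP210, a membrane glycoprotein of the nuclear pore (shNUP210), and in the other 2 a control hairpin by title (shCon, given the genotype wild type). All 4 are labelled untreated, the labels name no hairpin sequence, vector or time after delivery, and nothing in them says that replicates were grown as separate cultures. A p-value here therefore reflects only how these 4 libraries vary, which may be technical variation. Values are TPM (transcript abundance normalised for transcript length and library total), which keep no read depth, so the depth behind each value is unknown. NUP210 was at 10.1 and 9.85 TPM in shNUP210 against 32.8 and 27.3 TPM in shCon. Genes at 1 TPM or more numbered 14564 and 14405 in shNUP210 and 13920 and 13675 in shCon. All 12 hepatocyte and hepatoma markers of a fixed list were at 1 TPM or more in every library, including ALB and AFP. Of these, 4 fell (limma adjusted p under 0.05), against 1.07% of all tested genes, and the list's median log2 fold change was -0.04. The summed level of these markers was 32170 and 32840 TPM in shNUP210 against 46190 and 47800 TPM in shCon. APOA2 held most of that sum, at 16903 and 17350 TPM in shNUP210 against 26123 and 28243 TPM in shCon. None of 5 endothelial markers had a row, and 3 of 6 leukocyte and 7 of 9 fibroblast markers had one. Summed fibroblast markers were at 86.1 and 64.7 TPM in shNUP210 against 28.3 and 34.6 TPM in shCon, and summed leukocyte markers at 48.1 and 25.8 against 165.8 and 151.9 TPM. COL1A2 and LYZ respectively held most of those sums. The part of these marker levels in the tubulin values was not tested. In bulk RNA, fewer cells of a type and less RNA per cell cannot be told apart.

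The beginning and the end of the coding sequence are where tubulin genes show their family and their isotype, so both are printed here from GENCODE release 29 on GRCh38. The first 21 coding bases carry, in capitals, codons 2 to 4, which encode the residues after the initiator methionine that TTC5 reads.
TUBA1B: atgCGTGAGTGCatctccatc
TUBB: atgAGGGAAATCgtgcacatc
TUBB2A: atgCGCGAGATCgtgcacatc
TUBB6: atgAGGGAGATCgtgcacatc
The capitals of TUBA1A and TUBA1C equal those of TUBA1B, and those of TUBB4B equal those of TUBB. TUBB3 shares those of TUBB6, and TUBA4A and TUBB2B each have a version of their own. Within each family these versions are synonymous, so the encoded residues are the same.

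For the beta members, the last 75 coding bases, stop codon included, encode the carboxy-terminal tail. Capitals mark bases that differ from TUBB, or have no TUBB base opposite them, in a global alignment of the coding sequences.
TUBB: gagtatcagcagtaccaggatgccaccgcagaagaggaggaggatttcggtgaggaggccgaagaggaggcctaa
TUBB4B: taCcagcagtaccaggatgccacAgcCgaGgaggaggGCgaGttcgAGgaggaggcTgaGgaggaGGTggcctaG
TUBB2A: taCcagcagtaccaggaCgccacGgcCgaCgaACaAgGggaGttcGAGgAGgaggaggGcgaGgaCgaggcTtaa
TUBB2B: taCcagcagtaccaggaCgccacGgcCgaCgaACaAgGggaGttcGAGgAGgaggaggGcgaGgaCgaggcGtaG
TUBB6: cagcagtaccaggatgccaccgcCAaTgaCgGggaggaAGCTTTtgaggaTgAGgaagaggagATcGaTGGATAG
TUBB3: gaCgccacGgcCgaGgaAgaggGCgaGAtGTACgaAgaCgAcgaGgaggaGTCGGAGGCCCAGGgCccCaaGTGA
In this stretch TUBB3 had 37 capitals, TUBB6 24, TUBB2B 20, TUBB2A 19 and TUBB4B 15. Coding lengths were 1353 bases for TUBB3, 1341 for TUBB6 and 1335 for TUBB, so some capitals may be added bases. The counts are of bases, not of encoded residues. TUBB3 and TUBB6, which had the most capitals, also had the highest fold changes of the members below. The order did not hold for TUBB2A and TUBB2B, with log2 fold changes of 0.78 and 0.61. A link between tail sequence and fold change was not tested.

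In the knockdown libraries 3 of the 4 beta isotypes that were less abundant than TUBB4B and TUBB rose. By limma on log2(TPM + 1), TUBB6, TUBB3 and TUBB2A rose, 1.83-fold, 2.17-fold and 1.73-fold by the ratio of group means. No member fell. TUBB4B and TUBA1B, the most abundant members as deposited, did not pass, at ratios of 1.05 and 0.978; antisense rows, described below, change the order of levels and turn the TUBA1B ratio to 1.08. A call is a Benjamini-Hochberg adjusted p under 0.05 over all 10140 genes, and 1.79% of all genes were called higher and 1.07% lower, against 3 and 0 of the 10 members. At an unadjusted p under 0.05, limma had 5 members higher and 0 lower, against 18.4% and 5.95% of all genes. More abundant genes were called more often in both directions. Of 3701 genes at a mean of 20 to 100 TPM, where TUBB3 and TUBB2B lie, 2.13% were called higher and 0.865% lower. Of 1155 genes at 100 to 500 TPM, 4.68% were called higher and 3.03% lower. Of 277 genes at 500 TPM or more, 6.5% were called higher and 10.1% lower.

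TUBB6 (ENSG00000176014, chromosome 18, 12307669 to 12344320, plus strand on GRCh38) encodes class V beta tubulin. It was at 601.3 and 630.7 TPM after knockdown and 339.6 and 334.4 TPM in the controls. The groups lay far apart next to the spread within each, 616 ± 20.8 against 337 ± 3.71 TPM (SD, n = 2 each). Its log2 fold change of 0.87 (SE 0.08) passed, limma adjusted p = 0.015. That p was 0.0736 with no filter, 0.134 with no mean-variance trend and 0.101 to 0.126 with any 1 library left out, while the log2 fold change with a library left out was 0.83 to 0.90.

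TUBB3 (ENSG00000258947, chromosome 16, 89921392 to 89938761, plus strand) encodes class III beta tubulin and had the highest fold change of the members. It was at 103.6 and 103.4 TPM in shNUP210 and at 52.0 and 43.4 TPM in shCon. Both knockdown libraries were nearly equal and above both controls. The log2 fold change was 1.11 (SE 0.16), limma adjusted p = 0.035, and 628 of the 10140 tested genes had a higher one. The call ended with no filter (0.118), with the filter at 1 TPM (0.0658), with no mean-variance trend (0.128), after upper-quartile scaling (0.0502) and with any 1 library left out (0.124 to 0.156). Of 10 neuronal markers, 2 had a row: GAP43 was at 0.38 to 1.30 TPM, and SYP at 1.08 and 5.83 TPM in shNUP210 and 1.23 and 5.45 TPM in shCon.

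TUBB2A (ENSG00000137267, chromosome 6, 3153669 to 3157526, minus strand) and TUBB2B (ENSG00000137285, chromosome 6, 3224261 to 3231730, minus strand) are neighbouring genes for class II beta tubulin. TUBB2A was at 217.9 and 198.6 TPM in shNUP210 and 114.9 and 126.1 TPM in shCon, a log2 fold change of 0.78 (SE 0.12, limma adjusted p = 0.041). TUBB2B was at 109.0 and 113.8 TPM against 80.3 and 65.6 TPM, 0.61 (SE 0.15), and did not pass (limma adjusted p = 0.094). Neither gene's groups overlapped. Their coding sequences were 98.1% identical, and 54.1% of the 50-base stretches in the TUBB2A transcripts also occur in TUBB2B, so reads may have been divided between them in either direction. The sum of both depends on that division only through the difference in transcript length. It was 326.9 and 312.4 TPM in shNUP210 against 195.1 and 191.7 TPM in shCon, a ratio of 1.65. The TUBB2A call ended under each of the 4 other scalings (limma adjusted p 0.0636 to 0.104), with no filter (0.128), with the filter at 1 TPM (0.0711), with no mean-variance trend (0.138) and with any 1 library left out (0.142 to 0.167).

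TUBB (ENSG00000196230, chromosome 6, 30720201 to 30725426, plus strand), the class I isotype found in most cells, was at 804.6 and 845.2 TPM in shNUP210 and 683.9 and 627.6 TPM in shCon. Its groups did not overlap, but the log2 fold change of 0.33 (SE 0.08) did not pass (limma adjusted p = 0.096). TUBB4B (ENSG00000188229, chromosome 9, 137241213 to 137243707, plus strand), the widely expressed class IVb isotype, was at 1095 and 1100.4 TPM against 1076 and 1024 TPM. That difference, 0.06 (SE 0.07, limma adjusted p = 0.61), was about the size of its error. Thus all 6 beta members had knockdown libraries above both control libraries, which was also the case for 42.9% of all tested genes, while 3 of the 6 were called. The median log2 fold change was 0.70 over the 6 beta members, -0.04 over the 4 alpha members and 0.23 over all tested genes.

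Among alpha members, TUBA1B (ENSG00000123416, chromosome 12, 49127782 to 49131397, minus strand), the main alpha isotype of dividing cells, was at 1102 and 1055 TPM in shNUP210 and 1149.8 and 1056 TPM in shCon. The groups overlapped, with a log2 fold change of -0.03 (SE 0.08, limma adjusted p = 0.84). TUBA1C (ENSG00000167553, chromosome 12, 49188736 to 49274603, plus strand) was at 230.7 and 252.4 TPM against 269.7 and 231.3 TPM and overlapped too (-0.05, SE 0.12). TUBA4A (ENSG00000127824, chromosome 2, 219249711 to 219278170, minus strand) was the only member with both knockdown libraries below both controls, at 7.11 and 6.81 against 9.39 and 9.03 TPM, and did not pass (log2 fold change -0.36, SE 0.31, limma adjusted p = 0.52). Of all tested genes, 14.3% had both knockdown libraries below both controls. STK16, on the opposite strand, overlaps 627 exon bases of TUBA4A and was at 22.4 and 32.7 against 20.4 and 19.4 TPM. The length-weighted sum of both genes had a ratio of 1.21 against 0.756 for TUBA4A alone. STK16 held 73.2 to 85.9% of that sum, so the sum cannot give the direction of TUBA4A itself. TUBA1A (ENSG00000167552, chromosome 12, 49184796 to 49189324, minus strand), an isotype abundant in neurons, was at 4.91 and 5.35 against 4.16 and 5.91 TPM, and the groups overlapped. No alpha member was called by limma in either direction, and none had an unadjusted p under 0.05.

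**Figure D1:**
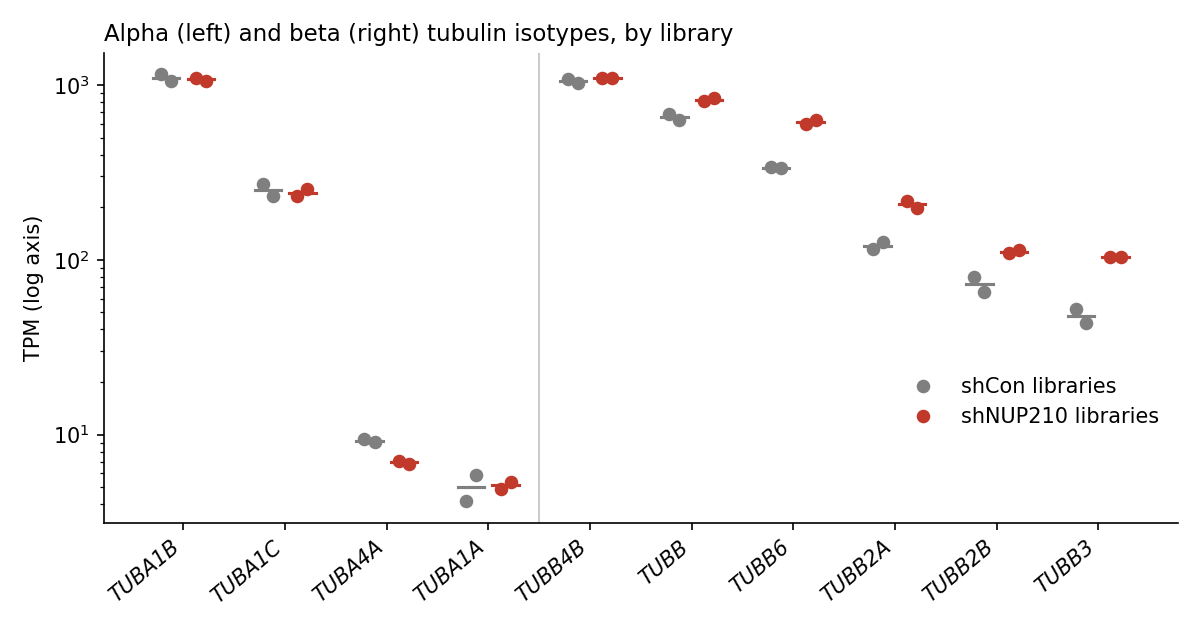
TPM of each member in each library on a log axis, with shCon in grey, shNUP210 in red and a bar at each group mean (n = 2 each). Points of the 2 groups overlap for TUBA1B, TUBA1C and TUBA1A, and stand apart most for TUBB6, TUBB2A and TUBB3.

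In the order of level as deposited, TUBA1B (1103 ± 66.2 TPM) and TUBB4B (1050 ± 36.8 TPM) led in shCon and did not differ beyond their spread, nor did they in shNUP210 (1079 ± 33.5 and 1098 ± 3.99 TPM). TUBB and TUBB6 followed, then TUBA1C (250.5 ± 27.1 TPM in shCon), TUBB2A (120.5 ± 7.97), TUBB2B (72.9 ± 10.4) and TUBB3 (47.7 ± 6.05), with TUBA4A and TUBA1A under 10 TPM. After knockdown TUBA1C (241.6 ± 15.3 TPM) and TUBB2A (208.3 ± 13.7 TPM) came close together, and TUBB2B (111.4 ± 3.42 TPM) and TUBB3 (103.5 ± 0.177 TPM) did so as well. All 10 members together took 0.428 and 0.431% of TPM in shNUP210 and 0.378 and 0.352% in shCon.

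The scaling of the libraries decides the sign of some members. The genome-wide median log2 fold change was 0.23 as deposited, and between -0.04 and 0.01 under the 4 other scalings. Relative to the median as deposited, TUBB3 stood 0.87 above, TUBB6 0.63 and TUBB2A 0.55, while TUBB4B stood 0.17, TUBA1B 0.27 and TUBA1C 0.28 below. That median differed by level, from 0.32 for genes under 20 TPM to 0.09 at 100 to 500 TPM and -0.07 at 500 TPM or more. Against genes of their own level, TUBB4B (0.06) and TUBA1B (-0.03) stood above the median and TUBA1C (-0.05) below. After trimmed-mean scaling 2 members were called higher, TUBB6 and TUBB3, against 0.71% of all genes, and 0 lower, against 2.55%. With that scaling TUBB4B had a log2 fold change of -0.21 and TUBA1B of -0.30, neither called (limma adjusted p = 0.19 and 0.098). The split of all calls went from 181 higher and 109 lower to 72 and 259. Median-ratio, upper-quartile and quantile scaling gave 2, 1 and 2 members higher, against 0.73, 0.651 and 0.858% of all genes, and 0 lower, against 2.54, 2.75 and 1.16%. TUBB6 was called under all 5 scalings, with log2 fold changes of 0.57 to 0.87.

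**Figure D2:**
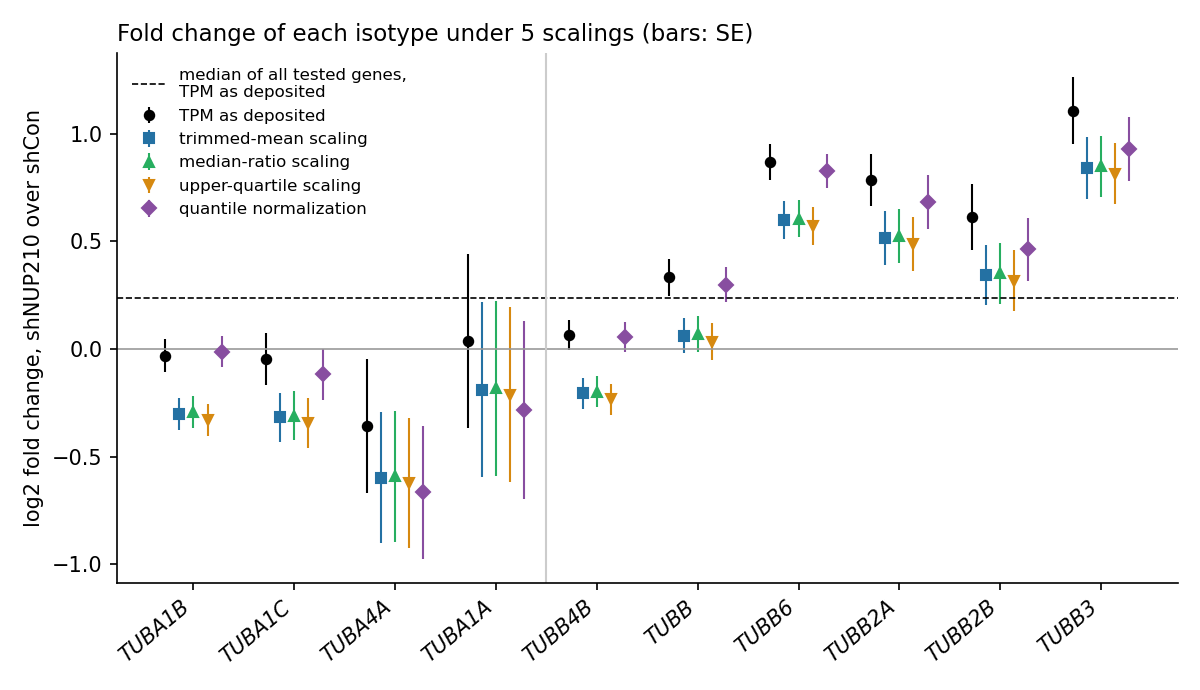
Log2 fold change of each member, shNUP210 over shCon, under 5 scalings, with bars of 1 SE and a dashed line at the median of all genes in TPM as deposited. TUBB6, TUBB2A, TUBB2B and TUBB3 lie above 0 under each scaling shown, as does TUBB by less, while TUBB4B and TUBA1A change sign.

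Shares within a family do not move with a scaling of the whole library. TUBB6 made up 20.5 and 21.1% of summed beta tubulin TPM in shNUP210 and 14.47 and 15.05% in shCon, a gain of 6.04 percentage points. TUBB4B went the other way, from 45.9 and 46.1% in shCon to 37.4 and 36.8% in shNUP210, although its TPM hardly differed. TUBB3 made up 3.495 ± 0.0567% against 2.09 ± 0.184%, and TUBB2A 7.04 ± 0.564% against 5.29 ± 0.554%. TUBB held 27.9 ± 0.564% against 28.7 ± 0.628% as deposited. Taken as a group, TUBB6, TUBB3, TUBB2A and TUBB2B held 35.2 and 34.97% of beta tubulin TPM after knockdown against 25.0 and 25.6% in the controls. As deposited, no such shift was seen for the main alpha members. TUBA1B held 81.0 ± 1.42% against 80.7 ± 0.606% and TUBA1C 18.1 ± 1.40% against 18.3 ± 0.749%. The small TUBA4A share was lower without overlap, at 0.529 and 0.516% in shNUP210 against 0.655 and 0.693% in shCon, from levels under 10 TPM. With 2 libraries a group no permutation test can give a p under 0.33, so shares are given without a test.

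**Figure D3:**
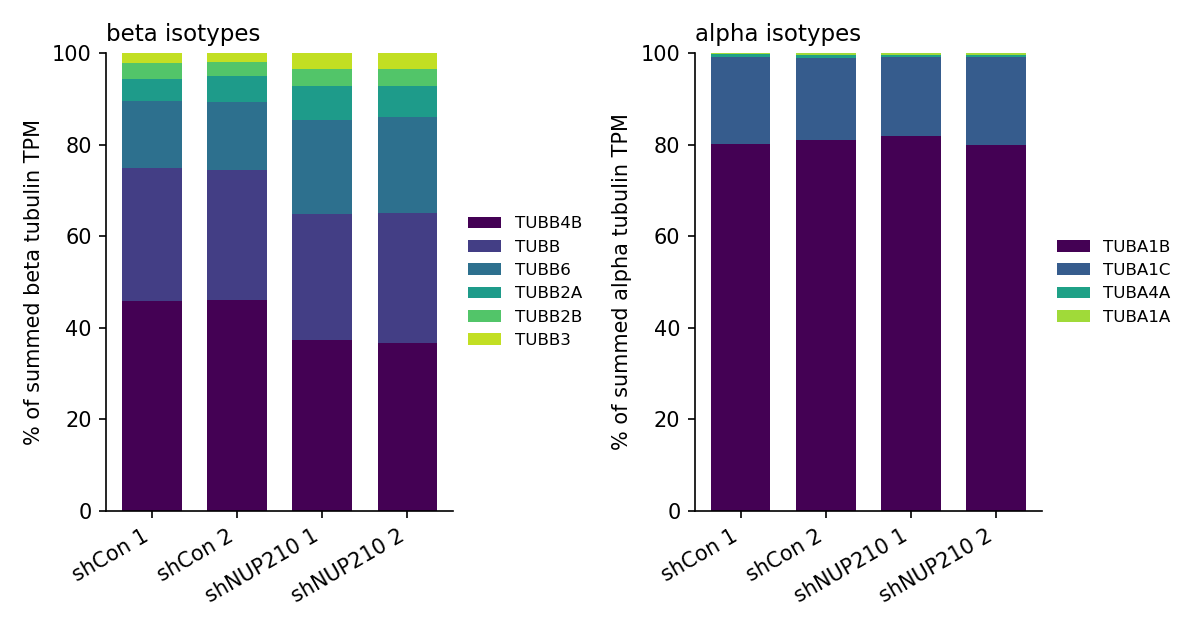
Percent of summed beta (left) and alpha (right) tubulin TPM held by each member, 1 bar per library. TUBB6 widens from 14.47 and 15.05% to 20.5 and 21.1% of beta tubulin, the TUBB4B share narrows, and the alpha bars look alike.

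The levels of TUBB and all 4 alpha members are uncertain, because genes that overlap their exons on the opposite strand hold more TPM than the tubulin rows. The antisense row RP11-386G11.10 overlaps 1309 exon bases of TUBA1B and was at 17302 and 18642 TPM in shNUP210 and 16453 and 16426 TPM in shCon. RP11-161H23.5, which overlaps 666 exon bases of TUBA1C, was at 3406 and 3388 against 2919 and 2928 TPM. XXbac-BPG252P9.9, which overlaps 538 exon bases of TUBB, was at 5152 and 5216 against 4014 and 4054 TPM and rose (log2 fold change 0.36, SE 0.05, limma adjusted p = 0.035). Whether counting used strand is not given, and without strand the reads of a gene and of its antisense partner cannot be told apart. TPM multiplied by mean annotated transcript length is roughly proportional to reads, and on that measure the antisense row held 86.5 to 88.7% of the pair at TUBA1B, 86.3 to 89.6% at TUBA1C and 62.2 to 64.4% at TUBB. STK16 held 73.2 to 85.9% of the pair at TUBA4A. TUBA1C, which overlaps 490 exon bases of TUBA1A, held 97.7 to 98.6% of that pair.

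With the antisense rows at TUBA1B, TUBA1C and TUBB added to the tubulin gene by that length weighting, an alternative chosen after seeing the data, TUBA1B had a log2 fold change of 0.11 and TUBA1C of 0.18 (limma adjusted p = 0.27 and 0.15), so the sign of both turned. TUBB had 0.35 (adjusted p = 0.0502). The same 3 members were past the threshold, and TUBB6 held 13.7 and 14.2% of beta tubulin in shNUP210 against 9.78 and 9.96% in shCon. TUBB then held 51.6 ± 0.288% against 52.3 ± 0.307%, and TUBB4B 24.9 ± 0.224% against 30.8 ± 0.352%, a difference of -5.89 percentage points against -8.92 as deposited. In TPM equivalents TUBA1B came to 9090 and 8432 in the group means, TUBB to 2278 and 1787 and TUBA1C to 2214 and 1948, so that TUBB and TUBA1C stood above TUBB4B. The ratio of summed beta to summed alpha TPM depends on this choice in level. It was 2.18 and 2.27 in shNUP210 against 1.64 and 1.71 in shCon as deposited, and 0.397 and 0.384 against 0.332 and 0.325 with the antisense rows added. Under both accounts the knockdown libraries had the higher ratio, by 1.33 times and 1.19 times.

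**Figure D4:**
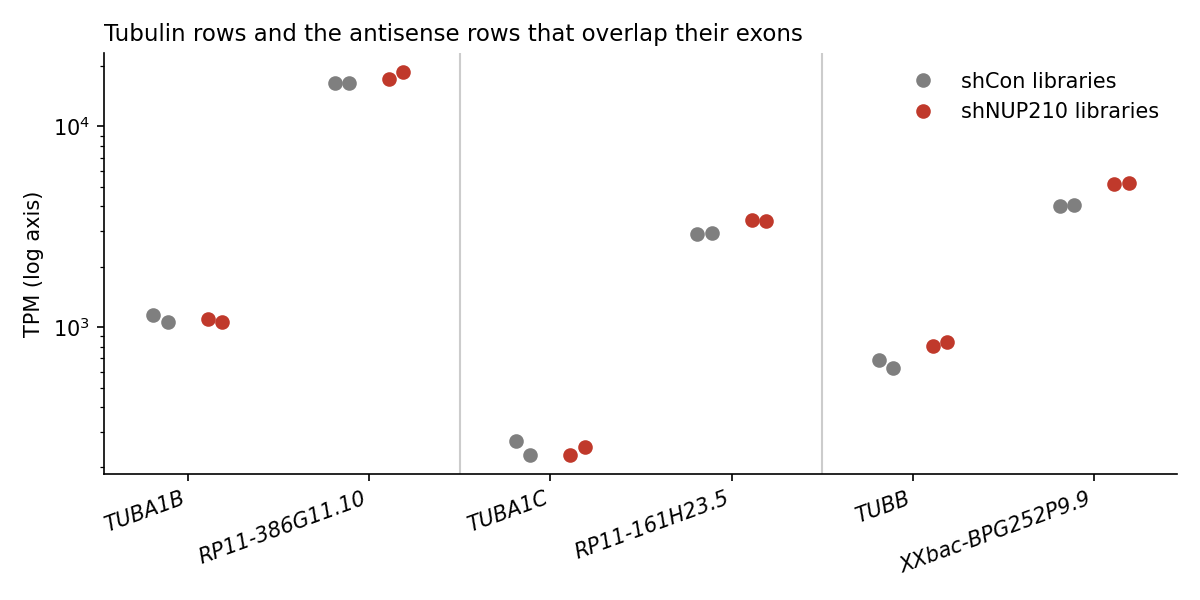
TPM on a log axis of 3 tubulin rows and of the antisense rows that overlap their exons, by library. The antisense rows lie at 2919 to 18642 TPM, above the tubulin row beside them in every library.

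Sequence shared between members limits the others to different degrees. Of the 50-base stretches in a member's listed transcripts, 83.0% were found in no other GENCODE gene on either strand for TUBB6, 89.0% for TUBB4B and 76.1% for TUBB. That share was 66.6% for TUBB3, where nearly all shared stretches belong to the read-through row at or near 0 TPM. TUBB2A (41.3%) and TUBB2B (46.2%) had the fewest. The alpha genes TUBA1A, TUBA1B and TUBA1C had 66.4, 61.3 and 66.2%, with coding identities of 95.9 to 97.2% among them. TUBB6 overlaps AFG3L2 on the opposite strand over 837 exon bases, and AFG3L2 was at 44.1 and 59.6 against 32.9 and 40.2 TPM. TUBB2B overlaps the proteasome assembly gene PSMG4 over 174 exon bases, and PSMG4 rose from 34.2 and 33.7 to 67.9 and 62.5 TPM (limma adjusted p = 0.0496).

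The upstream windows of TUBB2A and TUBB6 are printed because these members rose and the windows hold no exon base of their own gene. Each is the 250 bases before a RefSeq start on GRCh38.p14, with capitals at CCAAT and GGGCGG on either strand.
TUBB2A, chr6:3157545-3157794, minus strand: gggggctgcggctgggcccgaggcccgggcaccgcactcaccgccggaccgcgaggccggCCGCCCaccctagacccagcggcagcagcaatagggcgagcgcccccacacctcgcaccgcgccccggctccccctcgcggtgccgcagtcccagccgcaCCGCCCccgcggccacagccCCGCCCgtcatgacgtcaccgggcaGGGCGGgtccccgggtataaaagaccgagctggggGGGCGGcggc
TUBB6, chr18:12307419-12307668, plus strand: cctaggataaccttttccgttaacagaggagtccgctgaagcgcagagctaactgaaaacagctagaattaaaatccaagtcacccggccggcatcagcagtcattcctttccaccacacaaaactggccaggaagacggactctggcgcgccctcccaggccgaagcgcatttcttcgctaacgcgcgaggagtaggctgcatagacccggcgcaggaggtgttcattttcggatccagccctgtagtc
The TUBB2A window had 5 matches to GGGCGG, 1 to TATAAA and 0 to CCAAT, and the TUBB6 window 0, 0 and 0, with 1 match to GGAATG. TUBB6 has a second RefSeq start whose window had 6 matches to GGGCGG and 1 to CCAAT. Among 35116 windows of that length, 32% held CCAAT, 42.6% GGGCGG, 11.9% GGAATG and 10.7% TATAAA. The matches are letters in a window and name no factor. GGGCGG, which binds SP-family factors in many promoters, can overlap itself in such runs.

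Genes that act on tubulin were read from lists. Tubulin is folded by prefoldin, the CCT chaperonin and the tubulin cofactors, and 0 of 20 tested folding genes were called by limma, with 7 higher and 0 lower at an unadjusted p under 0.05 (18.4% and 5.95% of all genes). CCT2, a chaperonin subunit, was at 126.3 and 126.0 TPM against 76.3 and 80.1 TPM and did not pass (adjusted p = 0.053), nor did the cofactor gene TBCC (adjusted p = 0.20). The median log2 fold change of the folding list was 0.27, near the 0.23 of all genes. Of 9 tested genes of tubulin mRNA autoregulation 1 was called higher and 0 lower, against 1.79% and 1.07% of all genes. At an unadjusted p under 0.05, limma also had 1 higher and 0 lower, against 18.4% and 5.95% of all genes. The called gene, CNOT1, the scaffold of the CCR4-NOT deadenylase, rose from 29.9 and 39.4 to 97.4 and 91.2 TPM (log2 fold change 1.43, SE 0.19, limma adjusted p = 0.030). The other CCR4-NOT genes tested did not pass, the list's median was -0.10, and TTC5 was at 3.59 and 6.68 against 4.11 and 2.39 TPM, under the filter.

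Among 32 tested microtubule-associated proteins and regulators of dynamics, 1 rose and 1 fell, against 1.79% and 1.07% of all genes. At an unadjusted p under 0.05, limma had 16 higher and 3 lower, against 18.4% and 5.95% of all genes. MAPRE1, encoding the plus-end tracking protein EB1, fell from 56.6 and 55.4 to 27.4 and 27.7 TPM (0.492 of the control mean, limma adjusted p = 0.048). CDK5RAP3, named for binding a CDK5 regulatory subunit, rose from 29.5 and 30.9 to 78.0 and 59.8 TPM (limma adjusted p = 0.049). That list had a median of 0.58, above the 0.23 of all genes. Limma called 0 of 25 microtubule motor genes, 0 of 17 genes of the gamma-tubulin ring and augmin complexes, 0 of 10 tubulin-modifying enzymes and 0 of 5 other tubulin genes. At an unadjusted p under 0.05 those lists had 6, 4, 3 and 0 members higher and 1, 0, 1 and 0 lower, beside the same 18.4% and 5.95% of all genes. The members that led them in fold change did not pass, such as the motor KIF16B (log2 fold change 1.09, limma adjusted p = 0.15), the centrosomal scaffold PCNT (1.17, 0.097), HAUS2 of the augmin complex (-0.88, 0.24), KIF15 (0.99, 0.23), the deglutamylase AGBL3 (2.04, 0.13) and the detyrosinase MATCAP1 (1.12, 0.17). TUBG1, the gamma tubulin that seeds microtubules, was at 177.5 and 176.9 against 188.4 and 153.2 TPM. TUBB1, a minor beta gene, was at 6.51 and 6.01 against 2.4 and 3.87 TPM (log2 fold change 0.83, limma adjusted p = 0.29). The row read as TUBB8B is named RP11-683L23.1 as deposited and TUBB8P12 in GENCODE release 29. It was at 6.76 and 11.92 against 1.28 and 11.04 TPM, so its groups overlapped (0.93, limma adjusted p = 0.52).

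**Figure D5:**
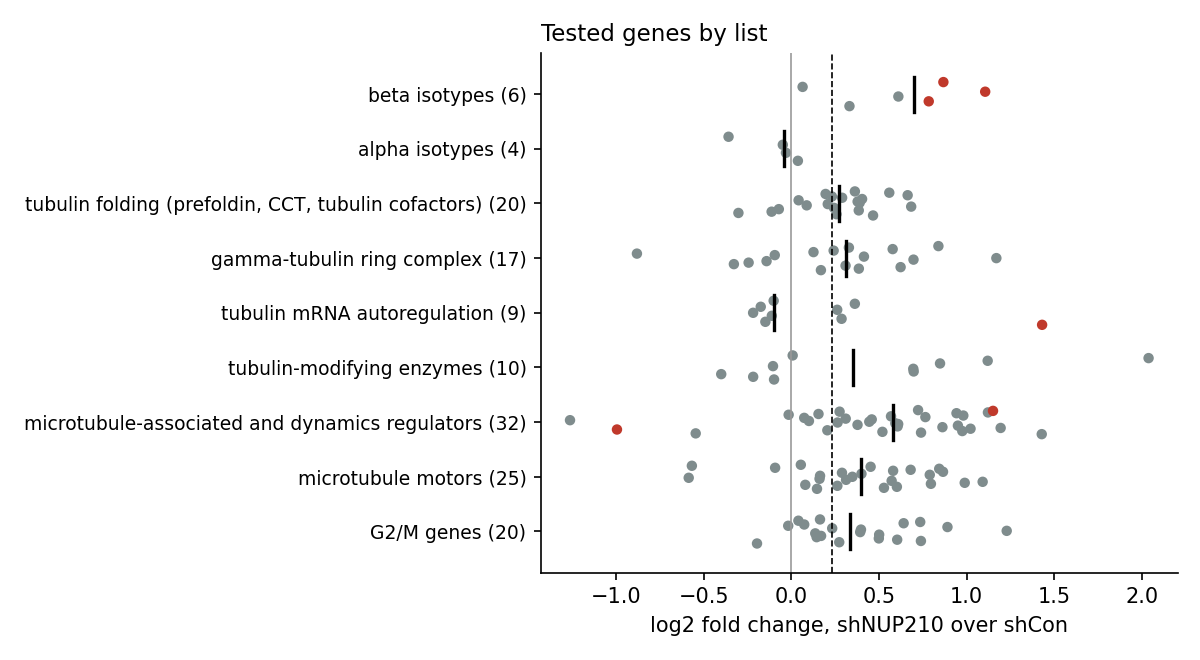
Log2 fold change of each tested gene, by list, with the number tested in brackets, a black bar at the list's median and red points at a limma adjusted p under 0.05. The dashed line is the median of all tested genes, 0.23, and 3 of the 6 beta members are red.

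Tubulin synthesis varies over the cell cycle, so genes of G2 and mitosis were counted too. Limma called 0 of 20, with 6 higher and 0 lower at an unadjusted p under 0.05 (all genes, 18.4% and 5.95%), and their summed level was 1510 and 1662 TPM in shNUP210 and 1290 and 1288 TPM in shCon. BUB1B was at 45.5 and 70.9 against 26.57 and 21.04 TPM (limma adjusted p = 0.075), and CENPF at 18.2 and 19.3 against 9.11 and 10.2 TPM (0.12). The part of these genes in the tubulin values was not tested.

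The genes most like TUBB6 over the 4 libraries, by the Euclidean distance between centred log2(TPM + 1) profiles, were the vesicle fusion protein gene VTI1B (distance 0.0143), the RNA-binding protein gene RBM4B (0.0407) and the helicase gene DDX42 (0.0442). VTI1B was at 63.6 and 66.3 TPM in shNUP210 and 35.5 and 34.5 TPM in shCon. For TUBB3 they were MAPKBP1 (0.0685), PCNT (0.0686) and ZFYVE26 (0.0879). PCNT was at 14.7 and 14.9 against 6.60 and 5.47 TPM. With 4 libraries in 2 groups, such likeness mostly restates a like fold change.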

How the data were processed

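The authors deposited 1 table per library whose values are TPM, read as such from column totals of 999992.7 to 999997.8. Trimmomatic, STAR, RSEM and DESeq and the hg38 build are named per the submitters' processing notes, with no versions or roles, and no source used here names the annotation release. Limma 3.58.1 (R 4.3.3) was fitted to log2(TPM + 1) of genes with at least 5 TPM in 2 libraries. The fit had a mean-variance trend and Benjamini-Hochberg adjustment over all 10140 genes. It was also run on simulated data whose variance followed level alone, which does not bear on how real genes vary. Fold changes on this scale understate changes of low genes. Ratios are of group means of TPM. Gene positions, exon overlaps and transcript sequences came from GENCODE release 29, and motif windows from RefSeq. The members, gene lists, filter and scaling were chosen with earlier results of these data known. Named genes are all members, the called genes of each list or else the 2 with the largest fold change, and the 3 nearest profiles of 2 members. Replicate numbers did not pair the libraries (correlation of deviations 0.0231). Pseudocount, filter, scaling, variance model, replicate block and left-out libraries were varied. The ends of the alpha coding sequences are not reported here.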

Additional observations from a re-analysis of the deposited data

How the results depend on the processing

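No alternative called a member lower by limma; at an unadjusted p under 0.05, 3 members were lower after trimmed-mean, median-ratio and upper-quartile scaling. The members called higher were 3 as reported, 0 with no filter (5 at an unadjusted p under 0.05), 1 with 1 TPM in 2 libraries, 1 after upper-quartile scaling, 0 without the mean-variance trend (4 unadjusted) and 0 with any single library left out (4 or 5 unadjusted). All genes called numbered 290 as reported, 15 with no filter, 57 with 1 TPM in 2 libraries, 518 with 5 TPM in all 4 libraries, 0 without the trend (2290 unadjusted) and 4 (without shCon replicate 2) to 27 (without shNUP210 replicate 1) with a library left out. With the replicate number as a block, 1 member, TUBB6 (limma adjusted p = 0.042; TUBB3 0.071, TUBB2A 0.0817), and 63 genes were called; the labels do not say that numbers pair libraries. Fits without a library assume that the lone library of a group varies like the others. TUBB4B turned to -0.21, -0.20 and -0.23 on the log2 scale after trimmed-mean, median-ratio and upper-quartile scaling, and TUBA1A to -0.19, -0.18, -0.21 and, by quantile normalization, -0.28. With a library left out, TUBA1A ranged from -0.17 to 0.25, TUBA1B from -0.0925 to 0.0299 and TUBA1C from -0.159 to 0.0611. With the antisense rows added, TUBA1B was at 0.11 and TUBA1C at 0.18. The cause of these changes was not tested. TUBA1A had no value with 5 TPM required in all 4 libraries, where it is filtered out. Share differences taken over all listed genes of a family moved by less than 1 SD, but with the antisense rows added TUBB4B went from -8.92 to -5.89 percentage points, TUBB6 from 6.04 to 4.08 and TUBA1B from 0.284 to -0.803. Depth is unknown in TPM, which limits TUBA1A and TUBA4A most.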
